A study of Mus musculus with 6 samples.

Results

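Calcium release, reuptake and buffering genes of skeletal muscle were described in gastrocnemius, a calf muscle that in mice holds mostly fast fibres. The members were the rows of the deposited table whose symbol is Cacna1s, Ryr1, Srl, Casq1, Casq2, Atp2a1, Atp2a2, Sln, Pln or Pvalb, and all 10 were found among its 25344 genes. The 6 RNA libraries came as 3 of wild-type mice (WT) and 3 of their littermates that carried an NRTN transgene (HSA-NRTN), driven in skeletal muscle by the promoter of the human alpha-skeletal actin gene. The sources used here do not give the age of the mice, the number of transgenic lines or whether each library is 1 animal, so a p-value here speaks of the spread among libraries, which may be technical. Nrtn, which encodes the secreted neuronal growth factor neurturin, was at 1.70 to 4.33 FPKM (reads per gene, scaled by its exon length and by all reads counted in genes) in WT and at 169 to 201 FPKM in HSA-NRTN.

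A muscle fibre contracts when calcium leaves the sarcoplasmic reticulum and relaxes when calcium is pumped back. The voltage sensor of the plasma membrane opens the release channel of the reticulum, calsequestrins hold calcium inside that store, the SERCA pumps refill it, and in fast fibres parvalbumin binds calcium in the cytosol until the pumps remove it. Fast and slow fibres differ in how much they use of each version of the pump and of calsequestrin. These genes are therefore widely used as markers of fibre type, and exercise and nerve activity are known to change them.

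Reads counted in genes numbered 27418154 to 50291845 per library. FPKM divides by these totals. The size factors that the authors' table implies shift HSA-NRTN against WT by -0.30 (log2) compared with FPKM. Across all tested genes the median change (log2) was 0.18 in FPKM and -0.06 with the size factors, so changes are given on both scales. The WT libraries differed in slow-fibre genes: of 10 such genes listed as markers, 9 were lowest in WT 1 and 9 were highest in WT 3, and within HSA-NRTN all 10 were lowest in HSA-NRTN 3. Fast-fibre genes were abundant in all 6 libraries, with Myh4, the myosin of type IIb fibres, at 7794 to 9434 FPKM in WT and 2422 to 3022 FPKM in HSA-NRTN. The fast myosins Myh1 and Myh2 went the other way. Myh1 was at 578 to 699 FPKM in WT and 1531 to 2013 FPKM in HSA-NRTN. Myh2 was at 312 to 605 FPKM in WT and 812 to 1013 FPKM in HSA-NRTN.

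The 6 most abundant of these genes fell, and those that rose were of lower abundance. Of the 10 genes, 6 fell (Pvalb, Casq1, Atp2a1, Cacna1s, Ryr1 and Srl) and 3 rose (Sln, Casq2 and Pln), by limma with a Benjamini-Hochberg adjusted p under 0.05 over 10755 tested genes. Of all tested genes 11.7% were called lower and 41.6% higher. With the size factors 6 fell and 2 rose, against 30.1% and 20.8% of all genes. In the authors' deposited test the counts were also 6 and 2, against 17.8% lower and 18% higher. With limma-voom on the recovered reads they were 6 and 2 again, against 28.6% lower and 23.3% higher. The 3 WT libraries all lay above the 3 HSA-NRTN libraries for 6 genes and below them for 3 (15.2% and 47% of all tested genes), and with the size factors for 6 and 1 (35.6% and 24.3%). The members' median (log2) was -0.32 in FPKM and -0.62 by size factors, beside 0.18 and -0.06 for all tested genes. Without WT 1, the count in FPKM was 6 lower and 2 higher, and without WT 3 it was 5 and 4. Because these are bulk samples, fewer fibres of a type and less RNA per fibre cannot be told apart. All 10 genes passed the filter of a mean of 1 FPKM over the 6 libraries, Sln and Pln only through HSA-NRTN. Both were higher there, so that their places among the rises counted with this filter support nothing. Together the 10 genes took 4.94% to 5.60% of all reads in WT and 2.99% to 3.03% in HSA-NRTN, most of them from Atp2a1, which alone took 3.17% to 3.68% and 1.99% to 2.06%.

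**Figure D1:**
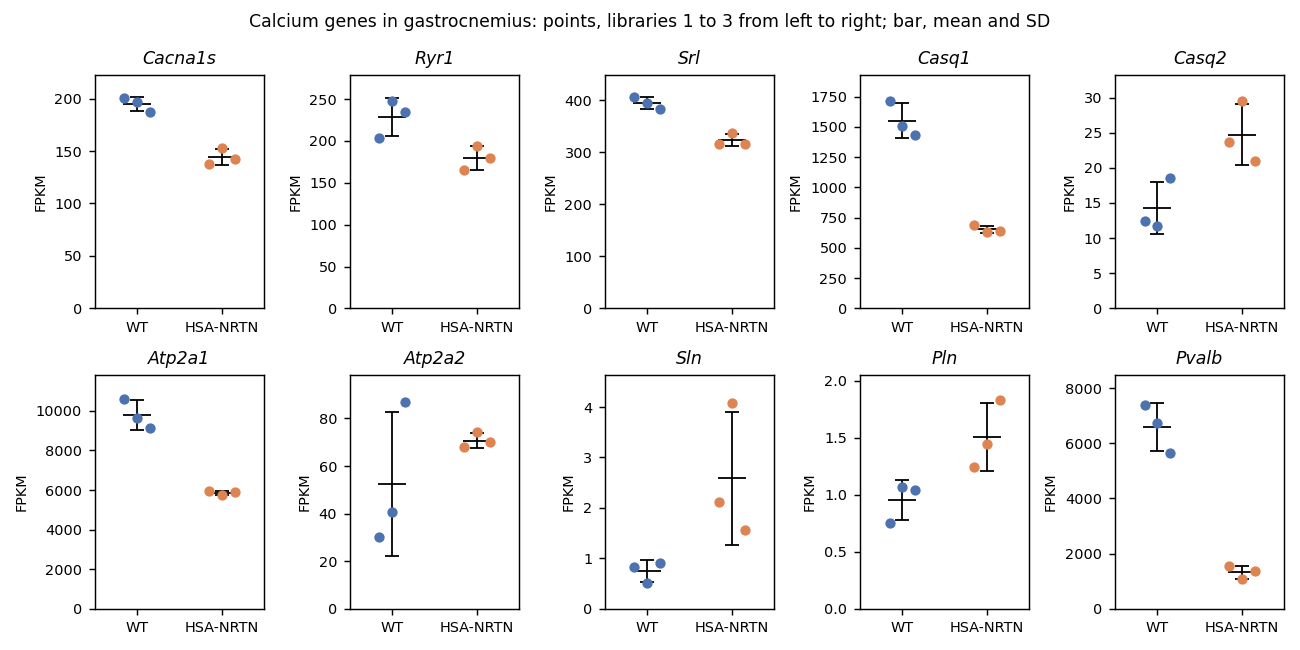
FPKM of the 10 calcium genes in each library, on linear axes that start at 0. Points are libraries 1 to 3 from left to right in each group, the bar is the mean and the whiskers 1 SD (n = 3). Pvalb, Casq1 and Atp2a1 separate the groups widely, while the WT points of Atp2a2 span the HSA-NRTN points.

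The voltage sensor and the release channel both fell, and the ratio between them overlapped between the groups. Cacna1s, the pore subunit of the L-type channel that senses voltage in skeletal muscle (GRCm38 chromosome 1, 136052750 to 136119822), was at 200.03, 196 and 187 FPKM in WT and at 138, 152 and 143 FPKM in HSA-NRTN. The groups did not overlap. Its level was 1.35-fold lower in HSA-NRTN (log2 -0.43 ± 0.07 SE, limma adjusted p = 0.00139), and log2 -0.73 with the size factors (adjusted p = 0.000193). Exons of Gm37759 on the opposite strand overlap 20.0% of the exon length of Cacna1s, and Gm37759 was at 0.104 to 0.585 FPKM. Ryr1, the release channel of skeletal muscle (chromosome 7, 29003344 to 29125179), was at 203, 248 and 234 FPKM in WT and at 165, 194 and 179 FPKM in HSA-NRTN. Every HSA-NRTN library was below every WT library, with HSA-NRTN 2 closest. The log2 change was -0.35 ± 0.10 (SE; limma, adjusted p = 0.0173) and -0.64 with the size factors (adjusted p = 0.00129). In FPKM the call of Ryr1 ended without WT 2, WT 3, HSA-NRTN 1 or HSA-NRTN 3 (limma, adjusted p from 0.0504 to 0.0629), but with the size factors it held whichever library was left out.

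The ratio of Ryr1 to Cacna1s within a library does not depend on how libraries are scaled. It was 1.02, 1.26 and 1.25 in WT and 1.20, 1.27 and 1.26 in HSA-NRTN. The groups overlapped, and the difference in log2 ratio was 0.08 ± 0.11 (SE of the difference, n = 3 each; exact two-sided permutation test, p = 0.6, also 0.6 adjusted over 5 ratios). Srl encodes sarcalumenin, a glycoprotein of the reticulum lumen that binds calcium and is found near the pumps (chromosome 16, 4480216 to 4541816). It had the smallest fall, from 408, 395 and 384 FPKM in WT to 317, 337 and 317 FPKM in HSA-NRTN. The log2 change was -0.29 ± 0.07 (SE; limma, adjusted p = 0.00802), and -0.59 with the size factors (adjusted p = 0.000713).

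The calsequestrins moved in opposite directions. Casq1, the main calsequestrin of fast fibres (chromosome 1, 172209894 to 172219868), was at 1718, 1505 and 1435 FPKM in WT and at 689, 634 and 637 FPKM in HSA-NRTN. The highest HSA-NRTN library stood below the lowest WT library by more than the range within either group. The fall was 2.38-fold (log2 -1.24 ± 0.09 SE, limma adjusted p = 2.49e-05), and 2.92-fold with the size factors. Casq2, the form of cardiac muscle that slow fibres also make (chromosome 3, 102086415 to 102146514), was at 12.5, 11.8 and 18.5 FPKM in WT and at 23.7, 29.5 and 20.95 FPKM in HSA-NRTN. The groups were close, with WT 3 just below HSA-NRTN 3. Casq2 rose (log2 0.77 ± 0.18 SE, limma adjusted p = 0.00722), also with the size factors (log2 0.48, adjusted p = 0.0423), where the libraries overlapped. That second call ended without WT 1, WT 2, HSA-NRTN 1 or HSA-NRTN 2 (limma, adjusted p from 0.0929 to 0.143).

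Casq1 stayed the main calsequestrin in every library. The ratio of Casq1 to Casq2 was 137, 128 and 77.4 in WT and 29.1, 21.5 and 30.4 in HSA-NRTN, so the groups did not overlap. Its log2 difference was -2.05 ± 0.30, a 4.15-fold lower ratio (exact two-sided permutation test, p = 0.1, the smallest that 3 against 3 can give; 0.167 adjusted over 5 ratios). Casq1 also fell relative to the release channel, a ratio chosen after the values were seen and not tested. There were 8.46, 6.06 and 6.13 FPKM of Casq1 per FPKM of Ryr1 in WT and 4.18, 3.27 and 3.55 in HSA-NRTN.

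The fast SERCA pump fell while the slow pump did not pass the test. Atp2a1 encodes SERCA1, the pump of fast fibres (chromosome 7, 126445858 to 126463108), and was the most abundant of the 10 genes per length in both groups. It was at 10592, 9660 and 9120 FPKM in WT and at 5936, 5737 and 5883 FPKM in HSA-NRTN, with WT spread more widely than HSA-NRTN and no overlap. The fall was 1.67-fold (log2 -0.74 ± 0.10 SE, limma adjusted p = 0.000444), and 2.06-fold with the size factors. Exons of Rabep2 on the opposite strand overlap 21.9% of the exon length of Atp2a1, but Rabep2 was at 4.93 to 9.22 FPKM.

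Atp2a2 encodes SERCA2, whose muscle form serves slow fibres and heart (chromosome 5, 122453513 to 122502225). It was at 30.0, 40.5 and 86.9 FPKM in WT and at 67.9, 74.2 and 69.9 FPKM in HSA-NRTN. The WT libraries lay on both sides of a narrow HSA-NRTN range. The log2 change was 0.57 ± 0.32 (SE; limma, adjusted p = 0.167), and 0.27 with the size factors (adjusted p = 0.495). The value rested on WT 3. Without WT 3 the gene was called higher (log2 change 1.00, adjusted p = 0.000932; with the size factors 0.69, adjusted p = 0.00585), and without WT 1 it stood at 0.25 in FPKM and -0.051 by size factors.

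Slow-fibre markers varied among the WT libraries as Atp2a2 did. Averaged over the 10 marker genes, each set against its own WT mean, the level was 0.614, 0.960 and 1.43 in WT 1, 2 and 3, where Atp2a2 was at 0.571, 0.772 and 1.66 of its WT mean. In HSA-NRTN the marker average was 1.09, 1.14 and 0.722, while Atp2a2 was at 1.29, 1.41 and 1.33 and Casq2 at 1.66, 2.07 and 1.47. The summed FPKM of the marker list ranged over 155 to 410 in WT and over 258 to 367 in HSA-NRTN, and none of its genes was at 0. Of its 9 tested genes 1 rose and 1 fell, beside 41.6% and 11.7% of all tested genes. With the size factors 0 rose and 3 fell, beside 20.8% and 30.1%. The 10 marker genes also mark the neighbouring soleus, a slow muscle. Their part in the values of Atp2a2 and Casq2 was not tested. The ratio of Atp2a1 to Atp2a2 was 353, 238 and 105 in WT and 87.4, 77.4 and 84.2 in HSA-NRTN. All 3 HSA-NRTN libraries lay below WT 3, the lowest of WT. The log2 difference was -1.32 ± 0.52 (exact two-sided permutation test, p = 0.1; 0.167 adjusted), and -0.93 without WT 1.

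**Figure D2:**
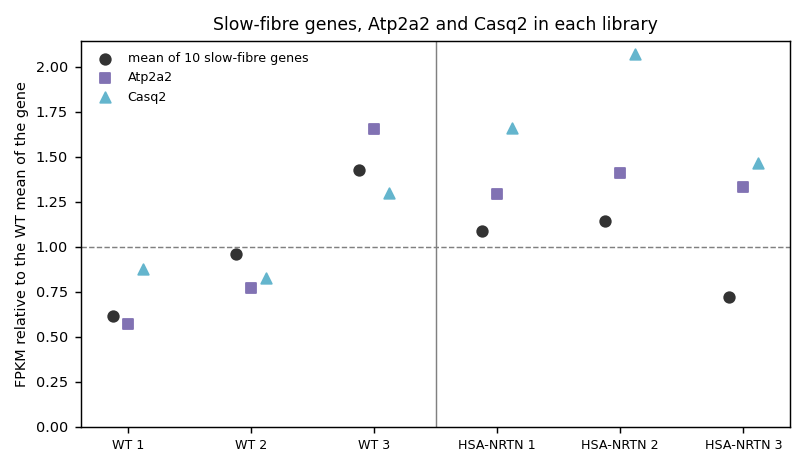
Levels of Atp2a2, of Casq2 and the average of 10 slow-fibre marker genes in each of the 6 libraries, as FPKM relative to the mean of the 3 WT libraries (dashed line at 1). In WT the marker average and Atp2a2 run from 0.614 and 0.571 in WT 1 to 1.43 and 1.66 in WT 3, while in HSA-NRTN 3 the marker average is 0.722 and Atp2a2 is 1.33.

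The small membrane proteins that restrain the pumps were scarce. Of the pair, only Sln kept its groups apart on both scales, with HSA-NRTN higher. Sln encodes sarcolipin (chromosome 9, 53850164 to 53854560) and was at 0.830, 0.505 and 0.904 FPKM in WT, from 30, 21 and 42 reads. In HSA-NRTN it was at 2.12, 4.07 and 1.56 FPKM, from 80, 270 and 63 reads. The groups did not overlap, and HSA-NRTN 2 stood well above the other 2. The mean was 3.47-fold higher, a change of 0.98 ± 0.23 on the log2(FPKM + 1) scale, which understates it at this level (SE; limma, adjusted p = 0.00747). With the size factors the change was 0.82 (adjusted p = 0.0145), and without HSA-NRTN 2 it was 0.70 in FPKM with the call kept. These calls used the filter that Sln passed only through HSA-NRTN, so that they support nothing. With no filter, under which its HSA-NRTN level did not decide its entry, the adjusted p in FPKM was 0.0330 (limma). No limma fit without the filter was run with the size factors. The authors' deposited table gives a log2 change of 1.5 (adjusted p = 0.000325).

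Pln encodes phospholamban, which restrains SERCA2 in slow fibres and heart (chromosome 10, 53337667 to 53345987). It was at 0.754, 1.07 and 1.04 FPKM in WT and at 1.24, 1.45 and 1.83 FPKM in HSA-NRTN, from 57 to 201 reads per library. The call of a rise (log2 change 0.36 ± 0.11; limma, adjusted p = 0.0264) ended with the size factors (0.19, adjusted p = 0.157), with limma-voom (adjusted p = 0.159), with no filter (adjusted p = 0.0733) and without WT 1, HSA-NRTN 2 or HSA-NRTN 3 (adjusted p from 0.0604 to 0.0948). The authors' deposited test did not call it either (log2 change 0.35, adjusted p = 0.286). Exons of Gm47644 on the opposite strand overlap 59.6% of the exon length of Pln. Gm47644 was at 0.269 to 0.296 FPKM in WT and 0.882 to 0.969 FPKM in HSA-NRTN, and since the labels do not say whether strand was kept, reads of the pair cannot be told apart.

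Sln remained far below Atp2a1, the gene of a pump that sarcolipin can restrain. For each 1000 FPKM of Atp2a1 there were 0.0784, 0.0523 and 0.0991 FPKM of Sln in WT and 0.358, 0.710 and 0.266 in HSA-NRTN. The groups did not overlap, and the log2 difference was 2.46 ± 0.50 (exact two-sided permutation test, p = 0.1; 0.167 adjusted). The ratio of Sln to Pln was 1.10, 0.473 and 0.870 in WT and 1.71, 2.81 and 0.856 in HSA-NRTN. These groups overlapped (log2 difference 1.06 ± 0.62; exact two-sided permutation test, p = 0.3; 0.375 adjusted). Genes of smooth muscle and pericytes, cells that also use Pln and Atp2a2, were listed as markers. Of 7 tested, 6 (all but Des) rose and none fell, beside 41.6% and 11.7% of all tested genes. With the size factors 2 rose and 1 (Des) fell, beside 20.8% and 30.1%. The summed FPKM of the list ranged over 1033 to 1079 in WT and over 958 to 1078 in HSA-NRTN. Most of this sum was Des, which muscle fibres make as well, at 866 to 929 and 722 to 861 FPKM. The sum therefore mainly follows Des and not the genes that rose. The part of the listed genes in the values of Pln and Sln was not tested. Genes of cardiac muscle were near 0, with a summed 0.695 to 0.742 FPKM in WT and 1.03 to 1.13 in HSA-NRTN for the 4 genes measured. The mean was 0.0721 FPKM in WT and 0.471 FPKM in HSA-NRTN for Tnni3, and 0.0095 and 0.0262 FPKM for Ryr2. It was 0.311 and 0.315 FPKM for Myh6, and 0.331 and 0.251 FPKM for Tnnt2.

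**Figure D3:**
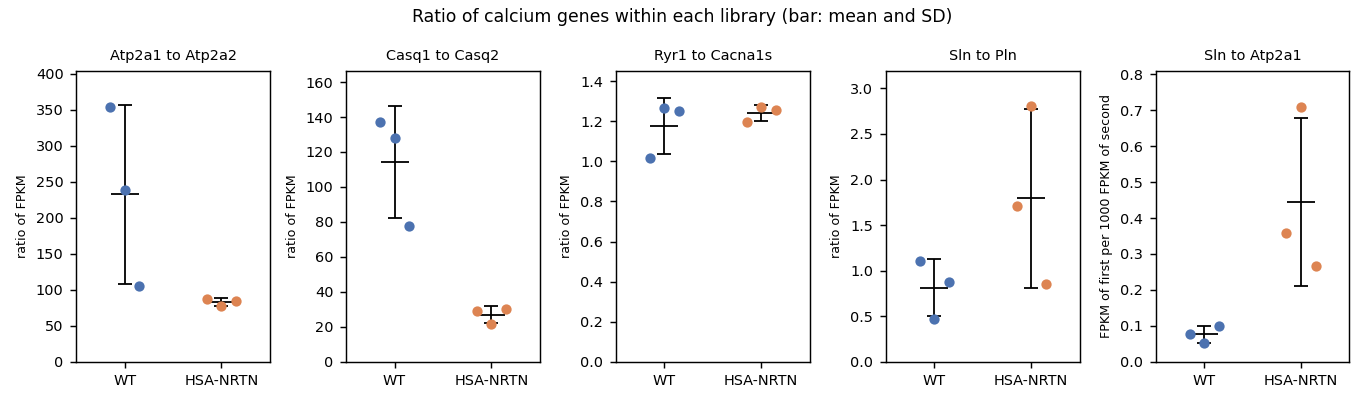
Ratios of FPKM between calcium genes of the same library, on linear axes that start at 0, with points for libraries 1 to 3 from left to right and the mean and SD (n = 3). Atp2a1 to Atp2a2 and Casq1 to Casq2 are lower in all 3 HSA-NRTN libraries, Sln per 1000 FPKM of Atp2a1 is higher in all 3, and Ryr1 to Cacna1s and Sln to Pln overlap between the groups.

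The cytosolic buffer fell most. Pvalb encodes parvalbumin, which speeds relaxation of fast fibres (chromosome 15, 78191114 to 78206400). It was at 7385, 6723 and 5661 FPKM in WT and at 1535, 1074 and 1385 FPKM in HSA-NRTN. The lowest WT library was more than 3 times the highest HSA-NRTN library. The fall was 4.95-fold (log2 -2.31 ± 0.15 SE, limma adjusted p = 1.42e-05), and 6.07-fold with the size factors (adjusted p = 2.37e-05). Leaving out any 1 library moved the log2 change only between -2.42 and -2.17. Relative to the pump that clears the calcium it holds, a ratio chosen after the values were seen and not tested, Pvalb was at 0.697, 0.696 and 0.621 of Atp2a1 in WT and at 0.259, 0.187 and 0.235 in HSA-NRTN. Markers of fast fibres moved beside Pvalb, Atp2a1 and Casq1. Of 8 such genes 6 fell and 2 (Myh1 and Myh2) rose, beside 11.7% and 41.6% of all tested genes. With the size factors 6 fell and 1 (Myh1) rose, beside 30.1% and 20.8%. None of the 8 was at 0. Their summed level ran from 35776 to 39352 FPKM over the WT libraries, and from 21359 to 22915 FPKM over those of HSA-NRTN. Their part in the falls of the calcium genes was not tested.

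The order of the 10 genes by mean FPKM was Atp2a1, Pvalb, Casq1, Srl, Ryr1, Cacna1s, Atp2a2 and Casq2 in both groups, from 9791 down to 14.3 FPKM in WT and from 5852 down to 24.7 FPKM in HSA-NRTN. Neighbours in this order did not overlap between their libraries. Pln and Sln came last, Pln first in WT and Sln first in HSA-NRTN, and their libraries overlapped in both groups. Among all 25344 genes, Atp2a1 had rank 7 in WT and 9 in HSA-NRTN, and Pvalb rank 12 and 30.

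**Figure D4:**
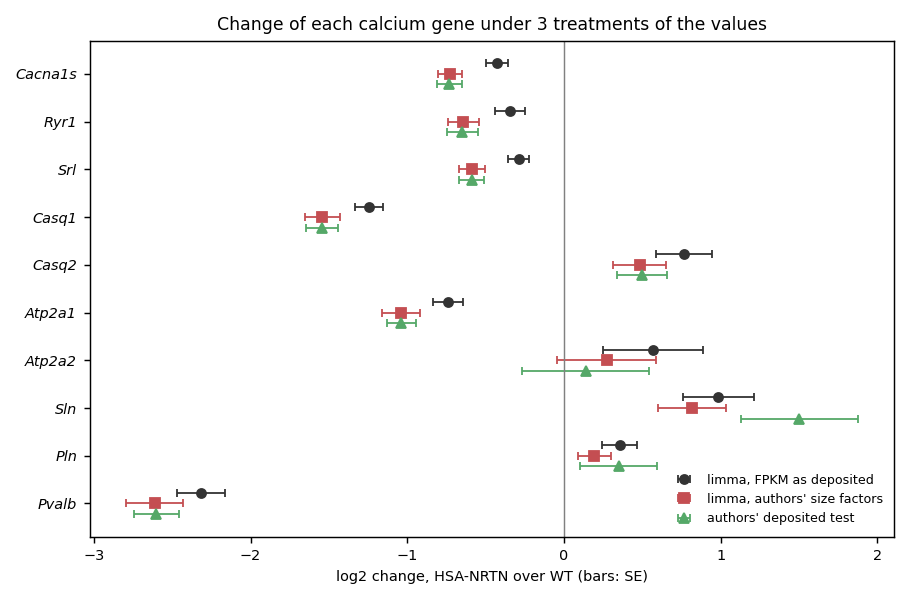
Log2 change of each calcium gene in HSA-NRTN over WT with its SE, from limma on log2(FPKM + 1), from limma with the authors' size factors and from the authors' deposited test. The size factors move the abundant genes down by about the same amount, so that Pvalb goes from -2.31 to -2.61, and Atp2a2 goes from 0.57 to 0.27.

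Promoter sequences were printed for the genes with the largest changes in each direction among those with an entry in the RefSeq promoter table (GRCm38.p6), which held 7 of the 10 genes. Each window runs from 250 to 51 bases before the annotated start, 5′ to 3′ on the gene's strand. Capitals mark matches to the consensus of MEF2, a factor family of muscle genes, or to CAGCTG, a form of the E-box that myogenic factors bind. Both are their own reverse complement, so 1 search covers both strands, and no matches overlap. Pvalb has 2 annotated starts, of which the upstream is shown.
Pvalb, chr15:78206451-78206650, minus strand: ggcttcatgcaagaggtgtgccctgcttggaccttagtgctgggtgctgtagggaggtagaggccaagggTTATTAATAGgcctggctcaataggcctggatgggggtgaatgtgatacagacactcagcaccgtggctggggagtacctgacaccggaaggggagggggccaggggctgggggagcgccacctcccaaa
Casq1, chr1:172219946-172220145, minus strand: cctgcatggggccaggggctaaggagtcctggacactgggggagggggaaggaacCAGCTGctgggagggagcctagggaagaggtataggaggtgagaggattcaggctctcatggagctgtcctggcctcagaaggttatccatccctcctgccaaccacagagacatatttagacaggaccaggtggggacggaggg
Casq2, chr3:102086165-102086364, plus strand: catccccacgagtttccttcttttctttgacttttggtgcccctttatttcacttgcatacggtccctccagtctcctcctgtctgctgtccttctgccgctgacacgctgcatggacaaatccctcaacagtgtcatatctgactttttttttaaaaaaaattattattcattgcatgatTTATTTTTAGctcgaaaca
The Pvalb window held 1 MEF2 match, 180 bases before the start, and the window of its other start held none. The Casq2 window held 1 MEF2 match, 69 bases before the start, and the Casq1 window 1 CAGCTG, 195 bases before it. Cacna1s also had 1 CAGCTG, and the windows of Atp2a1, Ryr1 and Pln had neither. A MEF2 match was found in 2.42% and CAGCTG in 10.3% of the 32851 promoter windows of this length, and a CArG box, the site of serum response factor, in 1.16% of them and in none of these genes. A match describes letters and is not evidence of binding, and a gene that fell (Pvalb) and a gene that rose (Casq2) both had a MEF2 match.

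Further genes of calcium handling were taken from a list of 72, of which 70 were in the table and 60 tested. Of these 27 fell and 20 rose, which is 45% and 33.3% of the 60, beside 11.7% lower and 41.6% higher among all tested genes. With the size factors 34 fell and 7 rose, which is 56.7% and 11.7%, beside 30.1% and 20.8% among all. Of the 60, Itpr2, Itpr3 and Mcub passed the filter of 1 FPKM only through HSA-NRTN, where they were higher, so that their places in these counts and in those by group support nothing. The genes called under both scalings were 27 lower and 7 higher. The median over the 60 (log2) was -0.07 in FPKM and -0.36 by size factors, beside 0.18 and -0.06 for all tested genes.

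Most partners of the release channel and voltage sensor fell as Ryr1 and Cacna1s did. Of 21 tested genes 14 fell and 3 rose, beside 11.7% and 41.6% of all tested genes. With the size factors 17 fell and 1 rose, beside 30.1% and 20.8%. Jph1, a junctophilin that ties the reticulum to the plasma membrane, fell from 108 ± 2.35 to 50.3 ± 3.01 FPKM (SD, n = 3), and Cacng1, the gamma subunit of the voltage sensor, from 147 ± 13.6 to 61.6 ± 2.74 FPKM. Trdn encodes triadin, which links calsequestrin to the release channel, and fell from 211 ± 6.64 to 108 ± 12.2 FPKM. Their log2 changes of -1.09, -1.24 and -0.96 were larger in size than those of Ryr1 and Cacna1s, a difference that was not tested. Among the release channels opened by inositol trisphosphate, Itpr1 was called lower on both scales, from 3.53 ± 0.465 to 2.13 ± 0.341 FPKM. Itpr2 and Itpr3, of the same family, were admitted to the test by their HSA-NRTN level. Itpr2 was at 0.828 ± 0.0537 FPKM in WT and 1.37 ± 0.157 FPKM in HSA-NRTN, and Itpr3 at 0.846 ± 0.0482 and 1.33 ± 0.263 FPKM. The scaffold gene Homer2 was called higher in FPKM and not with the size factors (adjusted p = 0.248).

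Among 4 tested genes of the pump and its regulators, Mrln fell and 3 rose, beside 11.7% and 41.6% of all tested genes. With the size factors 1 fell and 2 rose, beside 30.1% and 20.8%. Mrln encodes myoregulin, a micropeptide that restrains the pump of fast muscle, and fell from 24.9 ± 4.0 to 12.4 ± 1.0 FPKM (log2 -0.94 ± 0.12 SE, limma adjusted p = 0.000344). Mrln was thus more abundant per length than Sln in both groups. Sri, which encodes the calcium sensor sorcin, rose from 2.65 ± 0.288 to 5.91 ± 0.487 FPKM. Atp2a3, the pump SERCA3 known from blood and endothelial cells, rose from 2.35 ± 0.367 to 4.85 ± 0.665 FPKM. Markers of macrophages and of endothelium rose beside it. All 6 macrophage genes rose on both scales, with a summed 15.6 to 18.5 FPKM in WT and 64.5 to 73.1 FPKM in HSA-NRTN. All 6 endothelial genes rose, with a summed 72.8 to 81.1 and 101 to 125 FPKM. With the size factors 3 of them rose, and Cdh5, Kdr and Tek were not called. Beside these counts, 41.6% of all tested genes were higher in FPKM and 20.8% with the size factors. None of either list was at 0, and their part in the rise of Atp2a3 was not tested.

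Calcium sensors of the cytosol and their kinases fell with 1 exception. Of 4 tested sensors 3 fell on both scales, beside 11.7% of all tested genes in FPKM and 30.1% with the size factors. Calm3, which encodes calmodulin, fell from 131 ± 24.6 to 57.2 ± 1.37 FPKM. S100a1, a sensor that binds the release channel, rose from 79.4 ± 3.90 to 136 ± 17.8 FPKM (log2 change 0.76 ± 0.10; limma, adjusted p = 0.000497). All 4 calmodulin kinase genes fell on both scales, beside the same shares of all tested genes. Camk2a fell from 76.9 ± 7.27 to 27.4 ± 0.609 FPKM, Camk2b from 20.4 ± 1.39 to 12.9 ± 1.09 FPKM and Camk2g from 36.7 ± 3.39 to 26.8 ± 1.34 FPKM.

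Of 4 tested genes for proteins of the store lumen other than calsequestrin, 3 were called higher and none lower in FPKM. Among all tested genes 41.6% were higher and 11.7% lower. With the size factors 1 was higher and 1 lower, beside 20.8% and 30.1% of all tested genes. Hspa5, a chaperone that binds calcium, rose on both scales, from 49.5 ± 5.05 to 83.3 ± 16.1 FPKM. Calr, which encodes calreticulin, went from 52.8 ± 6.45 to 77.5 ± 12.9 FPKM and Calu, which encodes calumenin, from 33.7 ± 3.6 to 44.4 ± 3.53 FPKM, both without a call with the size factors (adjusted p = 0.123 and 0.337).

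In the plasma membrane group 4 of 11 tested genes fell and 3 rose, beside 11.7% and 41.6% of all tested genes. With the size factors 6 fell and 1 rose, beside 30.1% and 20.8%. Stim2, a sensor of store calcium, fell from 10.2 ± 0.668 to 5.31 ± 0.545 FPKM and Slc8a1, a sodium-calcium exchanger, from 3.59 ± 0.185 to 1.92 ± 0.688 FPKM. The calcium pump genes Atp2b4 and Atp2b1 rose in FPKM and were not called with the size factors (adjusted p = 0.0882 and 0.318).

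Of 12 tested genes of mitochondrial calcium transport, 7 were called higher and 1 lower in FPKM, beside 41.6% and 11.7% of all tested genes. With the size factors 1 was higher and 2 lower, beside 20.8% and 30.1%. Mcub, a paralogue of the uniporter that lowers its activity, was at 0.830 ± 0.308 FPKM in WT and 6.44 ± 0.269 FPKM in HSA-NRTN, and was admitted to the test by the HSA-NRTN level. The macrophage markers given above rose beside it, and their part in this difference was not tested. Micu3, a regulatory subunit of the uniporter, fell from 4.10 ± 0.224 to 1.96 ± 0.189 FPKM on both scales.

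**Figure D5:**
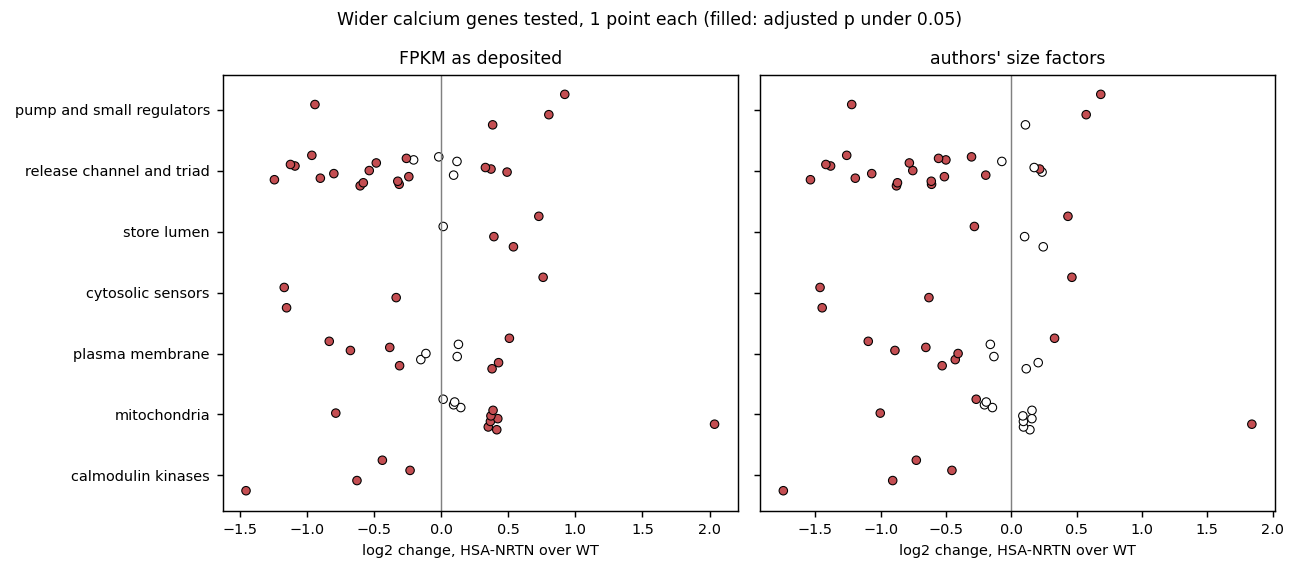
Log2 change in HSA-NRTN over WT of the 60 tested genes of the wider calcium list, 1 point per gene, in 7 groups, with FPKM as deposited on the left and the authors' size factors on the right. Filled points passed an adjusted p under 0.05. Release channel and triad genes and calmodulin kinases lie mostly below 0 on both scales, and most mitochondrial genes sit above 0 on the left and near 0 on the right.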

How the data were processed

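Per the labels' protocols, gastrocnemius was snap-frozen, TRI reagent gave the total RNA, and libraries were prepared by a TruSeq RNA kit of unstated strandedness. HISAT2, HTSeq, DESeq2, Cufflinks, Cuffdiff and GRCm38 are named in the submitters' processing notes, without versions or settings. The deposited table gives FPKM per library, which the authors did not correct for composition, and per the file headers the authors' mean signal (reads divided by size factors), log2 fold changes with errors, test scores and p-values, the adjusted ones for 18953 genes. The unit was settled from the values: 100% of 127467 values above 0 gave whole reads within 0.01 read, which also gave the size factors. Reads were 27418154 to 50291845 per library; 3 reads in a gene of 1 kilobase correspond to 0.0597 to 0.109 FPKM, covering counting error only.

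The main test was limma 3.58.1 (R 4.3.3) on log2(FPKM + 1), trend option on, for 10755 genes whose mean reached 1 FPKM, fitted on the whole table with no block and Benjamini-Hochberg adjustment. Ratios within a library were compared by an exact permutation test. The scripts were tested on simulated data. Alternatives were the size factors, a pseudocount of 0.1, no filter or one of 5 FPKM, the replicate block, limma-voom on the recovered reads with trimmed-mean factors, the authors' deposited test and leaving out each library. Fits that combine the size factors with a left-out library or the block were added after the data were seen. Of the wider list, each group's called genes are named by smallest p, to a maximum of 3, plus any called against most of the group; some genes the rule names are not reported here. Itpr1 was named outside this rule, beside Itpr2 and Itpr3, after its values were seen. Ocm and Calb2 were not analysed here. Strit1 was taken as Gm34302, and Arln and Erln as 1810037I17Rik and Smim6, for which RefSeq's gene table lists the synonyms Aln and Eln. The members and lists were chosen with earlier results of these data known.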

Additional observations from a re-analysis of the deposited data

How the results depend on the processing

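The directions and calls of Pvalb, Casq1, Atp2a1, Cacna1s and Srl held under all 20 alternatives. Those of Sln held under the 19 that tested it. Apart from no filter and the authors' deposited test, these admitted Sln only through its HSA-NRTN level, so that their calls support nothing. Without 1 library in turn, 2 to 4 of the 10 genes were called higher and 5 or 6 lower, and with the size factors 1 to 3 higher and 6 lower in each case. The filter of 5 FPKM left 1 higher because Sln and Pln were not tested, and the replicate block with the size factors also left 1, with Casq2 at adjusted p = 0.0938. Atp2a2 turned to -0.051 with the size factors without WT 1 and ran up to 0.69 in such fits. In the wider list, 7 genes were higher with the size factors, 12 with the filter of 5 FPKM, 8 with limma-voom and 8 in the authors' deposited test, against 20. Over all genes, 4476 were higher and 1255 lower; with the size factors 2226 and 3226, with limma-voom 2503 and 3074, with the filter of 5 FPKM 2023 higher, and in the authors' deposited test 3365 lower. The log2 difference of Sln to Atp2a1 was 1.72 from FPKM + 1 and 2.06 to 2.77 without 1 library, and that of Ryr1 to Cacna1s ran from -0.018 (without WT 1) to 0.14. The deviations of libraries with the same replicate number correlated at 0.083, -0.170 and 0.188 over the tested genes. Those of libraries with unlike numbers correlated at -0.195 to 0.101. With 3 libraries per group these values cannot settle whether the numbers pair the libraries. With the number as a block, 3 calcium genes were higher and 6 lower, as without it. Depth limits Sln and Pln, at 21 to 270 reads.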

Other observations

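Several calcium genes below the level set for testing differed in reads between the groups, and were named after their values were seen. Gm34302, listed by RefSeq as Strit1, encodes the micropeptide DWORF, which relieves the pump from its inhibitors. It had 4, 4 and 2 reads in the WT libraries and 0 in each HSA-NRTN library, all near the floor of 3 reads that a count of 0 allows, and the authors' deposited test gave it an adjusted p of 0.0407. Ryr3, the minor release channel of skeletal muscle, was at 0.131 ± 0.0429 FPKM in WT and 0.050 ± 0.00494 FPKM in HSA-NRTN (SD, n = 3), from 25 to 103 reads. It was lower in the authors' deposited test (log2 change -1.69, adjusted p = 5.21e-06). Orai2, a store-operated channel gene, was at 0.215 ± 0.0502 FPKM in WT and 1.06 ± 0.124 FPKM in HSA-NRTN, and higher in the authors' deposited test (log2 change 1.99, adjusted p = 2.32e-14). The 6 macrophage markers rose as well, and their part in the rise of Orai2 was not tested.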
